A study of Zea mays with 229 samples.

Results

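MYB121 overexpression was examined through the genes that the authors' deposited table of edges names as its targets. MYB121 is the plasmid name, and the sample titles pair it with the gene identifier Zm00001d032694. Members were all distinct targets on table rows with that regulator, a rule that uses no measured value of its own. They numbered 6491 of the 19787 genes that at least 1 of 23 regulators lists, which is 32.8%. The study used the TARGET assay, in which a plasmid carrying a transcription factor is put into protoplasts, plant cells freed of their walls, and the responding genes are read by RNA sequencing.

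The MYB121 group comprised 6 libraries of batch 20210510, 3 with nitrogen (plusN) and 3 without (minusN). Its empty vector libraries, titled p1107NLSmyc and also of batch 20210510, numbered 3 per nitrogen condition, 6 in all. Every group was of genotype B73, and the protoplasts came from the second leaves of seedlings kept in the dark before harvest. After transfection, cells were sorted for red fluorescence and their polyadenylated RNA was read from the 3' end. Factor expression was transient and came from a plasmid in isolated cells, so no intact leaf or stable line was measured. The batch also held the factors bHLH47, MYB81 and WRKY36. The labels do not say whether the libraries of a group are separate preparations of cells.

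MYB proteins are named for a DNA-binding domain built of imperfect helix-turn-helix repeats. The plant family is large, and its members are known to act in phenylpropanoid metabolism, cell identity, development and stress responses. An edge states that the authors listed a gene as responding to the factor. No edge carries a direction, a size, an error or a nitrogen condition, so a MYB121 target may have risen or fallen, and indirect responses cannot be told apart from direct ones. Read numbers per library were not analysed here. All comparisons of the list are therefore counts and shares, without a test.

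The MYB121 list was the 4th longest of the 23, above the median of 4002 targets. It held the MYB121 gene itself, at row 227 of 6491. A transcript made from the plasmid can be counted as the gene, so this entry bears on the label and shows nothing about self-regulation. For the 22 regulators that list their own gene, 11 had it among the first 3 rows of a stretch of consecutive rows, and 9 had it first. MYB121 was not among these.

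Most MYB121 targets were shared. Of the 6491 genes, 5873 stood in at least 1 other list and 618 (9.52%) were private, named for MYB121 alone. The median MYB121 target was listed for 6 other regulators, against 3 for all listed genes and 2 for the genes that MYB121 does not list. This is not particular to MYB121. The same median was 6 for HB6, NAC5, WRKY107 and G2, and over all lists it ran from 5 for NAC61 and bZIP9 to 12 for Zm00001d033859. In share of private targets MYB121 ranked 3rd of 23, after NAC61 with 954 of 8286 (11.5%) and G2, the Golden2 regulator of chloroplast development, with 607 of 5569 (10.9%). Lists of like length had smaller private shares, 7.89% for HB6, 5.20% for WRKY107 and 5.64% for NAC5. None of these differences has a replicate error, because the table gives 1 list per factor. The G2 libraries came from more than 1 batch, with differing titles, and the G2 list has 4 stretches of consecutive rows against 1 for MYB121. Whether that list draws on more than 1 batch is not stated. The length and private share of the G2 list may therefore not be comparable with those of MYB121. The lists of HB6, WRKY107 and NAC5 have 2 stretches each, so the same limit may hold for them.

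MYB121 listed a larger share of genes the more other regulators list them. Over all genes with at least 1 other regulator, MYB121 listed 5873 of 19169, or 30.6%. Among genes with exactly 1 other regulator the count was 563 of 5112 (11%), and with 2 or 3 others it was 1092 of 5527 (19.8%). It reached 1691 of 4702 (36.0%) with 4 to 7 others and 1350 of 2292 (58.9%) with 8 to 11. For genes with at least 12 others, MYB121 listed 1177 of 1536 (76.6%), and for those with at least 18 others 101 of 111 (91.0%). The other long lists showed the same order of shares. At 12 or more others, HB6 listed 82.0% of genes, WRKY107 83.1%, NAC61 82.0%, bZIP9 88.7% and NAC5 75.4%. The MYB121 share thus lay below 4 of these 5 lists and above that of NAC5. At exactly 1 other regulator HB6 listed 12.9%, WRKY107 9.12% and NAC5 8.72%, so MYB121 lay between HB6 and WRKY107.

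**Figure D1:**
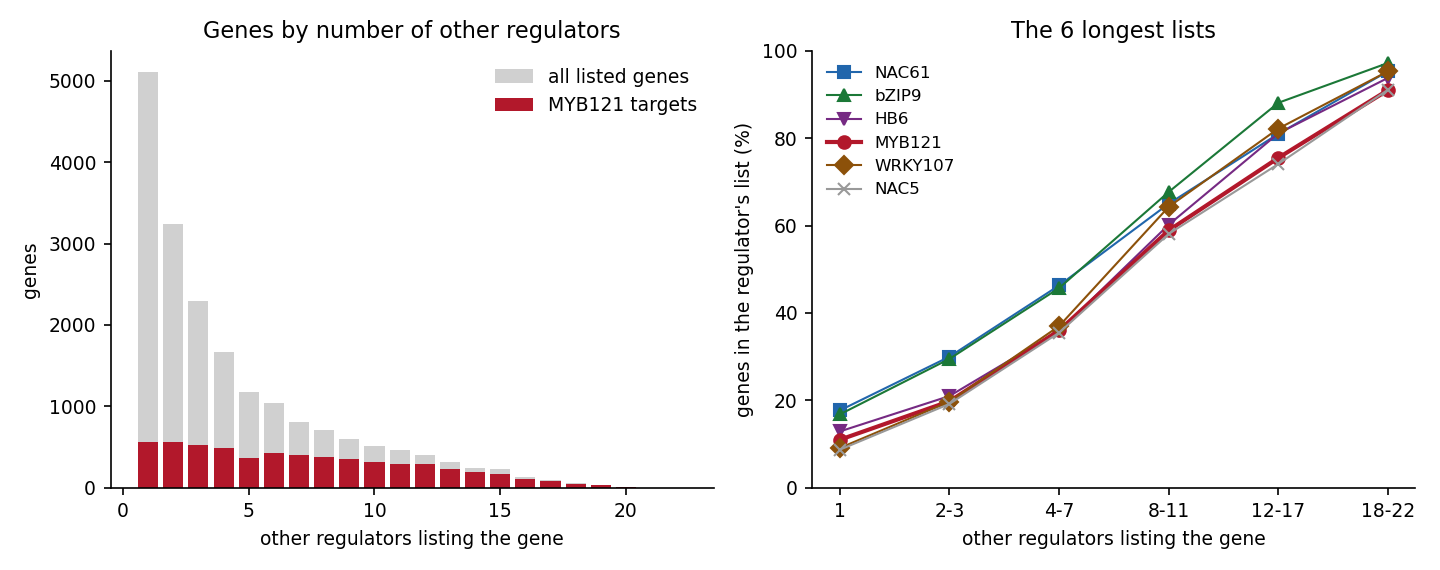
Left, number of genes (y axis) by how many of the other 22 regulators list them (x axis), for all listed genes in grey and MYB121 targets in red; the 618 private targets, with 0 other regulators, are not drawn. Right, percent of genes in a regulator's list (y axis) by number of other regulators (x axis) for the 6 longest lists; the red line of MYB121 goes from 11% to 91.0% and stays close to that of NAC5.

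The 2 genes listed for all 23 regulators, Zm00001d021935 and Zm00001d036946, stood at rows 1322 and 1615 of the MYB121 list. Both are given by identifier, since the reference table used here pairs no name with them. Among the 111 genes with at least 18 other regulators, 10 were missing from the MYB121 list. The ones with the most other regulators were Zm00001d018298 and Zm00001d021951, with 20 each; they were singled out after their values were seen. Besides MYB121, Zm00001d018298 was missing for MYB21 and MYB56, while MYB34 and MYB81 listed it. Zm00001d021951 was also missing for EREB115 and NAC109.

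Near-private targets were counted next. Of the MYB121 targets, 563 (8.67%) had exactly 1 other regulator. NAC61 was that regulator for 95 of them, G2 for 80, bZIP9 for 77 and HB6 for 51. These partners differ in list length, so the count was also set against all genes that a partner shares with exactly 1 regulator. On that scale MYB121 was the other regulator for 80 of 535 such G2 genes (15.0%), 95 of 904 NAC61 genes (10.5%), 77 of 917 bZIP9 genes (8.40%) and 51 of 686 HB6 genes (7.43%). EREB115, an AP2/ERF-type factor by its name, had 22 of 138 (15.9%). In the batch of MYB121 the values were 30 of 252 for WRKY36 (11.9%), 22 of 164 for bHLH47 (13.4%) and 10 of 75 for MYB81 (13.3%). Over all 22 partners the share ran from 0 of 2 genes for NAC109 to the 15.9% of EREB115, and a share pooled over them is not given here. The bZIP9 list is longer than that of G2, but 80 pairs with G2 against 77 with bZIP9 is a small gap. No preference for a partner is read.

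The MYB121 list was then set against each of the other 22. A share of each list is given, because the lists run from 658 to 8286 genes. All 22 lists held MYB121 targets at a share above the 30.6% of genes with another regulator. This is not read as closeness, because genes with many regulators stand in more lists and MYB121 lists them more often. Zm00001d033859, a regulator whose plasmid the titles do not give, had the highest share, with 459 of its 663 targets (69.2%). These genes are 7.07% of the MYB121 list. Zm00001d003176 followed with 1213 of 1870 (64.9%), then MYB56 with 1299 of 2063 (63.0%). The latter 2 are not separate observations, because all 1335 rows of the longer of 2 stretches of Zm00001d003176 also stand in the MYB56 list. Without those rows Zm00001d003176 shared 340 of 535 (63.6%). NAC109, a NAC factor, shared 403 of 658 (61.2%), and GLK44, a Golden2-like factor, shared 1347 of 2212 (60.9%), or 20.8% of the MYB121 list.

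The lowest shares of the other list were those of the longest lists. NAC61 shared 3321 of 8286 (40.1%) and bZIP9 shared 3320 of 8080 (41.1%). In terms of the MYB121 list these same 2 were the highest, at 51.2% and 51.1%. HB6 shared 2908 genes, 43.6% of its list and 44.8% of the MYB121 list. G2 shared 2532, 45.5% and 39.0% of the lists. For EREB115 it was 1303 genes, 47.5% and 20.1%, and for Orphan42 1812 genes, 45.3% and 27.9%. The order of lists thus depended on which list was the denominator.

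**Figure D2:**
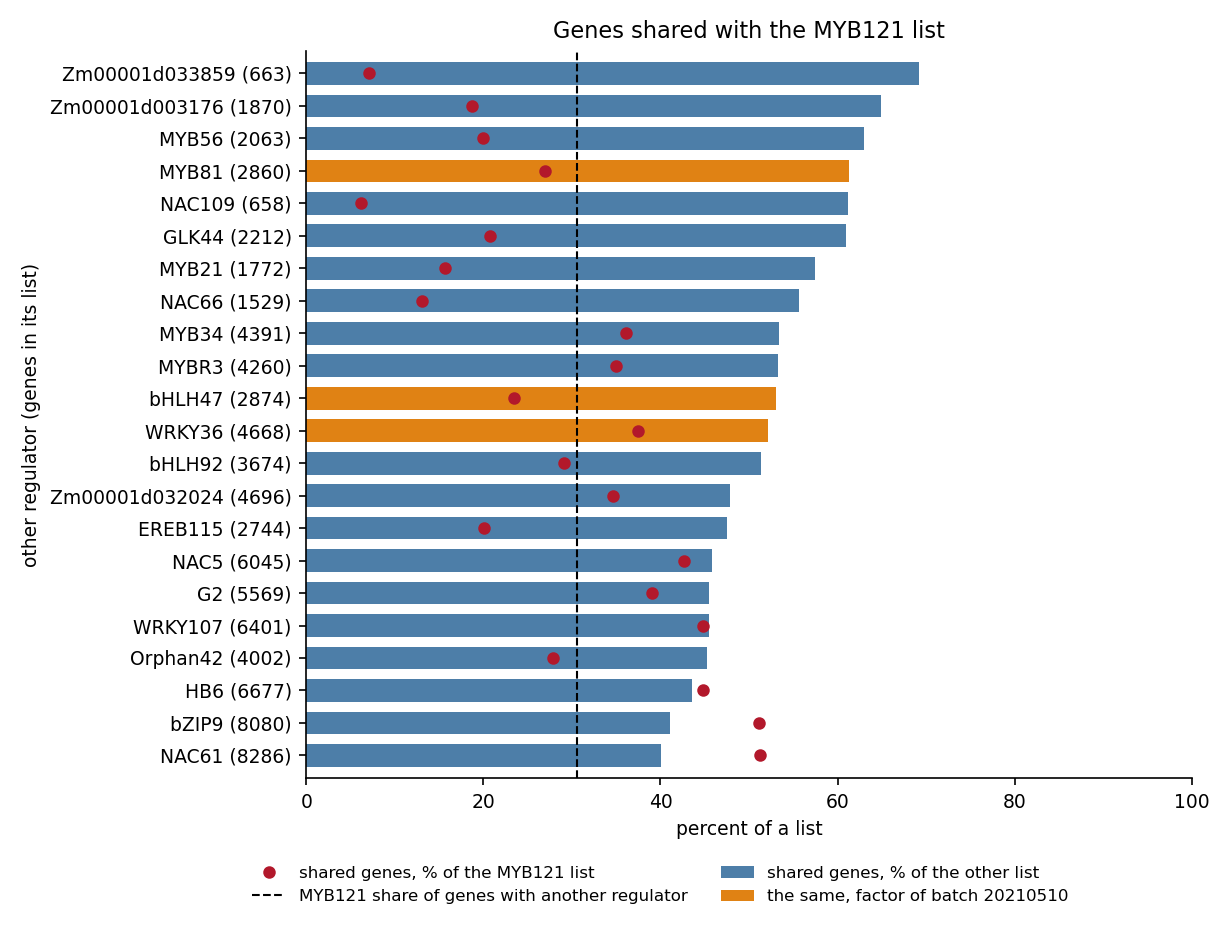
Bars give the genes shared with MYB121 as a percent of each other regulator's list, whose length stands in brackets, and red points the same genes as a percent of the MYB121 list (x axis, percent). Orange bars mark the 3 factors of batch 20210510, and the dashed line the 30.6% of genes with another regulator that MYB121 lists; every bar ends to the right of it, from 40.1% for NAC61 to 69.2% for Zm00001d033859.

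Short lists hold mainly genes with many regulators, which MYB121 also lists more often. Each share was therefore compared with that of genes outside the other list that have the same number of remaining regulators. For Zm00001d033859 the share of 69.6% in genes with a remaining regulator stood against 63.7%, a difference of 5.9 percentage points. Among lists of other batches the difference was 8.9 points for G2, whose libraries are not all of the same batch. The difference was 7.8 points for Zm00001d032024 and 7.4 for MYB56. It was 0.2 points for EREB115, 0.9 for NAC66, 1.7 for Orphan42 and 2.0 for WRKY107. A difference above 0 was found for all 22, and its sign is not read, since simulated lists without planted sharing also gave a difference above 0. By this measure Zm00001d033859 was 8th, not first.

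The other 3 factors of batch 20210510 were taken to share the empty vector libraries of MYB121, on the assumption that the authors set each factor against the controls of its own batch. MYB81 listed 2860 genes, of which MYB121 listed 1752 (61.3%, difference 10.2 points). For WRKY36 it was 2433 of 4668 (52.1%, 6.1 points) and for bHLH47 1523 of 2874 (53.0%, 6.0 points). Sharing of controls and sharing of targets cannot be told apart for these 3 lists, so nothing is read from their values. The other 19 lists are of other batches: all factor plasmids of batch 20210510 have an identifier in their titles, which leaves none for the 3 regulators without a matched plasmid.

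The factors with MYB names and a matched list were 5, MYB121, MYB21, MYB34, MYB56 and MYB81. A further MYB-named plasmid, ZmMYB38, has no identifier in its titles, as have KN1 and NLP3, and whether 1 of the 3 regulators without a matched plasmid is ZmMYB38 is not known here. The counts that follow take the MYB factors as the matched ones. MYB121 listed 22.9% of the 12887 genes that none of the other 4 lists, 41.1% of those with 1 of them, 60.6% with 2, 71.6% with 3 and 81.9% of the 254 genes with all 4. Without MYB81, which shares the batch, the shares were 24.3%, 45.8%, 64.4% and 77.4% for 0, 1, 2 and 3 of the MYB factors. In all, 3536 MYB121 targets (54.5%) stood in the list of at least 1 of the other 4, against 6900 of all 19787 listed genes (34.9%). The groups with 0 MYB factors include the 618 private targets, which are MYB121 targets by definition. Shares also rose with regulators of any name, from 11% with 1 other to 91.0% with at least 18. No lists with other names were set beside these shares, so no family trait is read. All 5 MYB lists held 208 genes in common. Those 208 genes also had a median of 10 of the 15 matched regulators with other names. Of the MYB121 targets, 42 (0.647%) had another matched MYB factor and none of these 15 regulators. With the 3 unmatched regulators counted as non-MYB as well, 27 (0.416%) were left. Of these, 12 were with MYB81, 10 with MYB34, 5 with MYB56 and 3 with MYB21, where a gene with more than 1 of them counts for each. The same share over all listed genes was not counted, so nothing is read from the 42 or the 27. MYBR3, named as MYB-related, shared 2271 genes, 53.3% of its list.

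Edges between MYB121 and the other regulators were described in both directions. MYB121 listed the genes of 11 of the 22 others (50.0%), against 32.8% of all listed genes. These were HB6, a homeobox factor by its name, Orphan42, EREB115, MYB81, NAC61, NAC109, MYB34, MYB56, G2, Zm00001d032024 and Zm00001d003176. With MYB121 counted, the listed regulators were themselves listed for a mean of 10.7 other regulators, and the 11 that MYB121 did not list for 5.55; of this gap, 1 is MYB121 itself. The 50.0% is thus a share among often-listed genes. It includes MYB34, MYB56 and MYB81 of the 4 other matched MYB factors, and leaves out MYB21 and both WRKY factors.

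The MYB121 gene in turn stood in the lists of 11 other regulators (50.0%), where 19.8% of all possible edges of the other 22 regulators were present. The genes of these 22 were listed for 0 (Zm00001d033859) to 16 (HB6) other regulators. The 11 of MYB121 lay within that range, so no trait of MYB121 is read. Regulators that listed the MYB121 gene were NAC5, NAC61, HB6, WRKY107, G2, GLK44, MYB34, MYBR3, bHLH47, Zm00001d032024 and Zm00001d003176. With 6 regulators, HB6, NAC61, MYB34, G2, Zm00001d032024 and Zm00001d003176, the edge went both ways. Another 6 had no edge with MYB121 in either direction, namely bZIP9, NAC66, MYB21, WRKY36, bHLH92 and Zm00001d033859. Zm00001d033859 is also the list with the highest share of MYB121 targets, a share that is not read as closeness. Its gene was listed for 0 other regulators, so the missing edge from MYB121 is not particular to this pair. MYB81 and WRKY36, of the same batch, did not list the MYB121 gene, and bHLH47 did. Rows of the regulators in the MYB121 list ran from 562 for Orphan42 and 788 for Zm00001d032024 to 5577 for MYB81 and 6297 for MYB34.

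**Figure D3:**
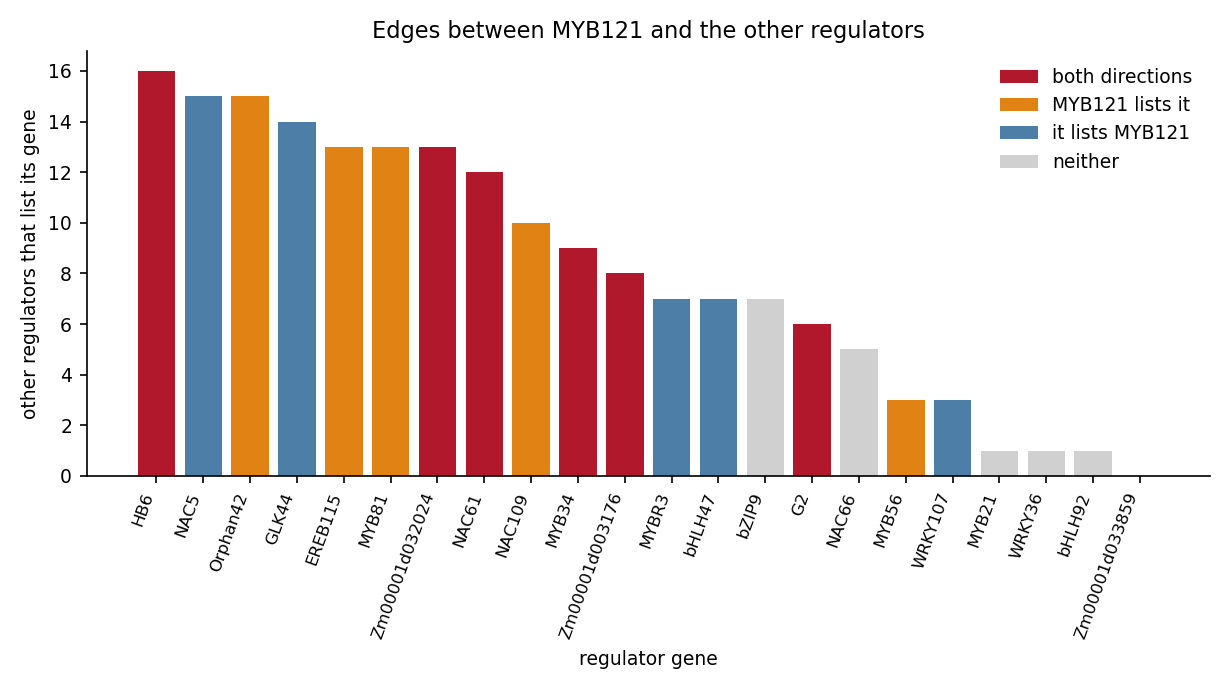
Bars give how many other regulators list each regulator's gene (y axis), MYB121 included, for the 22 regulators other than MYB121 (x axis). Colour shows the edges with MYB121: red for both directions (6 regulators), orange where MYB121 lists the regulator (5), blue where the regulator lists MYB121 (5) and grey for neither (6); Zm00001d033859 has no bar because no other regulator lists it.

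Genes that the reference names were microRNA genes, 5 of the 19787 listed genes, and MYB121 listed 3 of them. MIR397a, of a family that acts on laccase transcripts, enzymes of lignin polymerisation, was private to MYB121 and stood at row 5330. MIR171i, whose family targets transcripts of GRAS-domain regulators, stood at row 3974 and had G2 as its only other regulator. MIR171h stood at row 820 and was listed for 7 others: G2, GLK44, NAC5, NAC61, Orphan42, WRKY107 and bHLH92. MIR169l, listed for NAC5, and MIR396a, listed for NAC61, were not MYB121 targets. The libraries read polyadenylated RNA, so these entries refer to the precursor genes, and mature microRNAs were not measured. With 3 of 5 genes against 32.8% of all listed genes, no preference is read.

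The order of rows carried further structure. The sources used here do not say what the rows are sorted by. All MYB121 rows stood in 1 unbroken stretch, as did those of the other 3 factors of its batch, NAC109 and Zm00001d032024, while 16 regulators had 2 stretches and G2 more. The MYB121 rows were divided in file order into 10 sections of 649 or 650 genes. The mean number of other regulators per gene was 8.40 in section 1, 8.88 in section 2 and 8.49 in section 3. It was lower in each later section than in the one before, from 7.58 in section 4 to 4.00 in section 10. Genes with at least 12 other regulators made up 35.0% of section 1 and 5.39% of section 10.

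Private targets have no other regulator by definition, so their share is not a separate observation from the mean number of other regulators. The private share fell from 9.71% in section 1 to 5.86% in section 3 and was 13.9% in section 9. Of the 618, 237 stood among the first 3245 rows and 381 among the other 3246. Private MYB121 targets were thus present from the start of the list and more frequent towards its end. Row positions of genes shared with another stretch correlated weakly with those in the MYB121 list, with Spearman's rho from 0.01 to 0.38 and a median of 0.18 over 41 stretches. These are descriptions across genes, which are not independent replicates, and for the batch of MYB121 the points share control libraries under the assumption on controls given above.

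**Figure D4:**
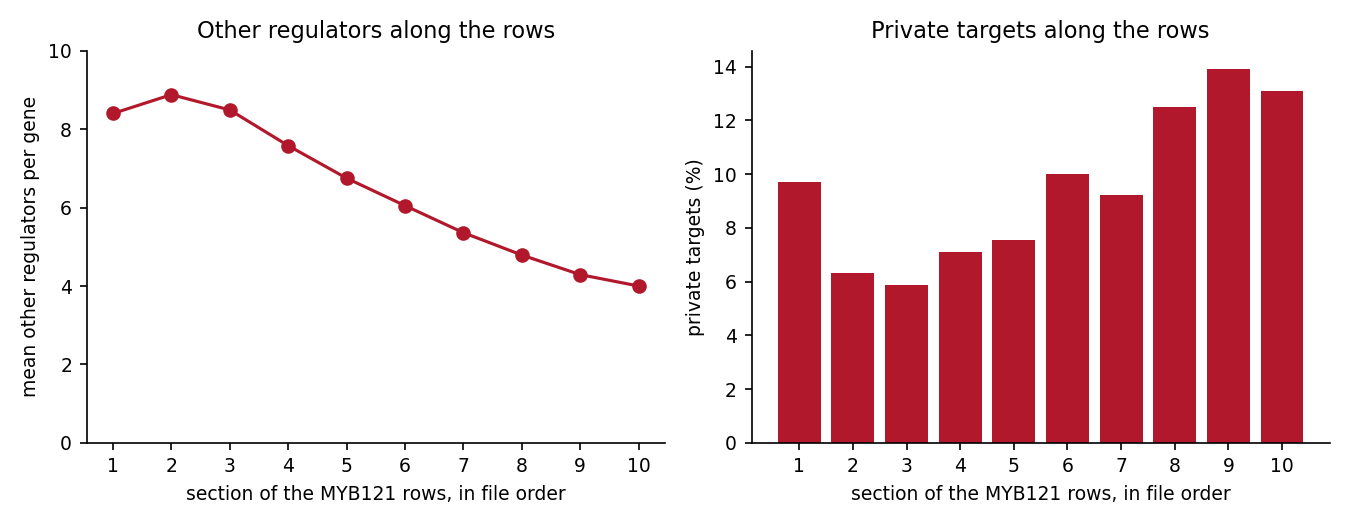
Both panels divide the 6491 MYB121 rows into 10 sections in file order (x axis). Left, the mean number of other regulators per gene (y axis) goes from 8.40 to 4.00; right, the percent of private targets (y axis) is lowest at 5.86% in section 3 and highest at 13.9% in section 9.

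Targets with consecutive identifiers were counted as neighbours; their positions on the chromosomes were not used here. Neighbours were counted as pairs, so a listed gene next to 2 targets counted 2 times. Of the neighbours of MYB121 targets, 2412 of 6183 (39.0%) were also MYB121 targets. Next to other listed genes it was 3771 of 11725 (32.2%), a difference of 6.8 percentage points. WRKY36, of the same batch, had the largest difference of the 23 regulators, at 7.1 points, and MYB121 the second. Of the MYB121 targets, 2162 (33.3%) stood in 956 blocks of at least 2 consecutive identifiers, and 45 blocks had 4 or more. A list of this length holds many such blocks even when its genes are scattered. Blocks were not counted for the other lists, so no clustering is read from these numbers. Of the private targets, 37 (6%) were next to another private target, and the longest such block had 3 genes. By the same count of pairs, 38 of 536 neighbours of private targets (7.09%) were private to MYB121, against 498 of 17372 (2.87%) next to other listed genes.

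The longest MYB121 blocks had 6 genes, and there were 2 of them, both singled out after their values were seen. The first ran from Zm00001d016895 to Zm00001d016900, and its genes had 3, 9, 2, 4, 12 and 16 other regulators in that order. The second ran from Zm00001d053745 to Zm00001d053750 and had 5, 19, 7, 13, 3 and 0. Its last gene, Zm00001d053750, was private to MYB121, and its second, Zm00001d053746, was among the most often listed genes of the table. Members of a block thus ranged from rarely to very often listed. Among the other regulators, the most was 5 genes of the first block, for Zm00001d032024, and 4 of the second, for HB6, bZIP9 and WRKY36. The blocks were chosen because MYB121 lists all their genes, and a block with a private gene cannot stand whole in another list. Nothing is therefore read from the lower counts of the other regulators.

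**Figure D5:**
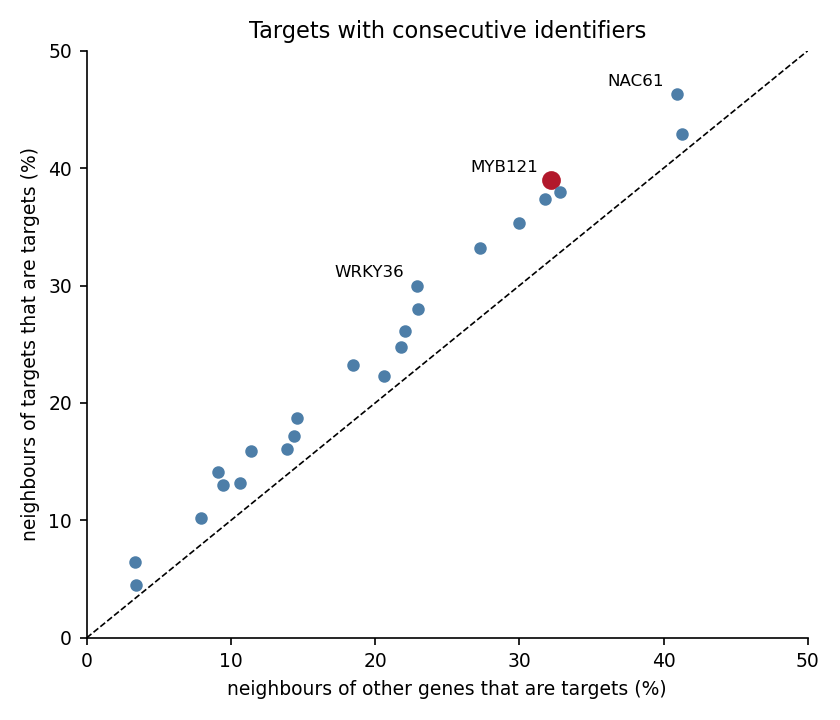
For each of the 23 regulators, the percent of neighbours of its targets that are also targets (y axis) against the percent among neighbours of other listed genes (x axis), with equality as a dashed line. MYB121, the large red point, lies at 39.0% against 32.2%, and all 23 points lie above the line.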

How the data were processed

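Maize B73 leaf protoplasts were measured in 229 libraries. The authors deposited 1 table of edges with text identifiers of regulators and targets, and other values per library or gene were not analysed here. The tools featureCounts and edgeR and the build B73 RefGen_v4 are named in the submitters' processing notes, and their versions, the thresholds and the handling of nitrogen conditions are not given there. Depth is unknown.

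The 94256 rows hold 92485 distinct edges, which were used. The 6491 MYB121 rows hold no repeat. Sample titles matched 20 of 23 regulators to plasmids. Members and gene lists were chosen with earlier results of these data known. With identifiers only, no model could be fitted, so shared genes were counted, in percent of each list. Shares were also compared within genes of equal numbers of remaining regulators, an alternative chosen after seeing the data. On simulated lists, planted sharing and planted blocks of neighbours were recovered by these measures. Without planted blocks the neighbour shares were nearly equal, but without planted sharing the stratified difference stayed above 0.

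Named are the regulators, genes listed for all 23 and genes with a reference symbol. The reference table (assembly Zm-B73-REFERENCE-NAM-5.0) paired 5 listed identifiers, all microRNA genes. The 11 symbol lists of pathways therefore matched 0 listed genes and gave no result. Python 3.11.15, scipy 1.17.1 and matplotlib 3.10.9 were used.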

Additional observations from a re-analysis of the deposited data

How the results depend on the processing

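MYB121 had 6491 targets, and its 1 stretch of rows gave the same number. As a percent of listed genes they were 32.8%, 40.2% of genes with at least 2 regulators and 30.6% of genes with at least 1 other regulator, both by construction of the background. The 618 private targets became 694 without the 3 other lists of batch 20210510, 617 with Zm00001d identifiers alone and 618 to 713 when each other list was left out in turn, the highest without NAC61. The list with the highest share of MYB121 targets, Zm00001d033859, was also first by the log2 odds ratio. It was 21st by the Jaccard index, where bZIP9 came first, and 21st by share of the MYB121 list, where NAC61 came first, since both measures grow with the length of the other list. In a comparison chosen after seeing the data it was 8th, by the difference from genes with the same number of remaining regulators, where MYB81, of the batch of MYB121, came first. The median number of regulators per target was 7, and 6 with MYB121 left out of the count. The 11 regulators among the targets are the same by construction without the longer stretch of Zm00001d003176, since that leaves the MYB121 list as it is. Leaving out the 3 unmatched regulators, a choice made after seeing the data, gave 42 in place of 27 targets with another matched MYB factor and no further regulator. No paired analysis was possible because identifiers carry no replicate numbers or levels, and leaving out libraries could not be run for the same reason. Which genes could be listed depends on depth and thresholds, which are unknown here.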

Other observations

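Of the 122 genes under ENSRNA identifiers in the table, MYB121 listed 0, against 32.8% of all listed genes. How these 122 genes spread over the other lists is not given here, so no trait of MYB121 is read. Of its 6491 targets, 6488 stood under Zm00001d identifiers and 3 under microRNA names. The 4 factors of batch 20210510 are among the 6 regulators whose rows stand in 1 stretch, and the labels do not say which condition or direction a stretch stands for.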
